A study of Rattus norvegicus with 8 samples.

Results

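The microRNAs (miRNAs) described here are those of the miR-23a27a24-2 and miR-23b27b24-1 clusters, counted in rat kidney after treatment with aristolochic acid (AA), a plant carcinogen that damages the kidney. Every row of the deposited table of known rat miRNAs named miR-23a, miR-23b, miR-27a, miR-27b or miR-24 was taken, with any arm suffix, which gave 11 of the 620 rows. Of these, 5 rows are 3p arms, rno-miR-23a, rno-miR-23b, rno-miR-27a, rno-miR-27b and rno-miR-24. The other 6 rows are the opposite 5p arms, which carry an asterisk, rno-miR-23a*, rno-miR-23b*, rno-miR-27a*, rno-miR-27b*, rno-miR-24-1* and rno-miR-24-2*.

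Kidney small RNA came from 8 male Big Blue transgenic Fisher 344 rats, rats with a transgene made for scoring mutations. The labels give their age as 6 weeks, which cannot be the age at sampling, since the treatment lasted 12 weeks. The AA group (4 rats) received AA as its sodium salt by gavage at 10 mg/kg body weight on 5 days a week for 12 weeks, and the control group (4 rats) received 0.9% saline as often and as long. The AA was 96% pure and held 40% AAI and 56% AAII. Kidneys were taken 1 day after the last treatment, and each library came from 1 rat. The control libraries (CTL1 to CTL4) held 15250865, 14674442, 15525397 and 13736874 reads on known miRNAs, and the AA libraries (AA1 to AA4) held 13412373, 15200830, 13814612 and 15616670. These column totals of the deposited table are far above the read totals that the study gives, and the reason is not given in the sources used here, so that the depth and what was counted as a read are uncertain. Levels are given as CPM, the reads of a miRNA for every 1000000 reads of its library after TMM scaling, a correction of the library size by the bulk of the miRNAs.

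The tissue field of the labels reads liver, although the protocols and the study describe kidneys. miR-122, the defining miRNA of liver cells, had 707, 55, 95 and 60 reads in CTL1 to CTL4 and 9, 9634, 43 and 20 reads in AA1 to AA4, so that AA2 and CTL1 stood apart from the rest of their groups. The 9 miRNAs listed for kidney epithelium ranged from miR-204 at 30.3 ± 7.0 CPM to miR-30a at 125631 ± 12923 CPM in control rats (SD, n = 4 each). miR-192, at 38408 ± 24835 CPM, is known to be abundant in liver as well, so that the levels of this list alone do not settle the tissue. As a share of the reads of a library, miR-122 made up 0.0634% in AA2, 0.00464% in CTL1 and less in every other library. CTL4 and AA4 stood apart in another way. CTL4 was the highest control library for all 5 of the 3p arms, and AA4 was the highest AA library for 4 of them, miR-24 being highest in AA1. Values without these libraries are given beside several of the results.

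The pair of clusters arose by duplication in vertebrates, and each is transcribed as 1 primary transcript. Drosha releases 3 hairpins from it, which Dicer then cuts. A miRNA finds its targets mainly through its seed, bases 2 to 8 from the 5′ end, so that miRNAs with the same seed share most predicted targets. The clusters are known for abundant expression in endothelial cells and for roles in angiogenesis, and miR-27 is known as a repressor of the lipid regulator PPARG. In the RefSeq annotation of the rat assembly GRCr8, the a cluster lies on the minus strand of chromosome 19 within 389 bases, with Mir23a at chr19:40859769-40859843, Mir27a at chr19:40859603-40859689 and Mir24-2 at chr19:40859455-40859562, and no other annotated gene overlaps these hairpins. The b cluster lies on the minus strand of chromosome 17 within 814 bases, with Mir23b at chr17:1819386-1819482, Mir27b at chr17:1819147-1819243 and Mir24-1 at chr17:1818669-1818736. All 3 hairpins of the b cluster lie within the span of Aopep, an aminopeptidase gene, and Mir24-1 also overlaps Fancc, a Fanconi anaemia gene, and Mir3074 on the opposite strand.

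The mature sequences show how far reads of the clusters can be told apart. RefSeq (GRCr8) gave a sequence for 10 of the 11 rows, and rno-miR-23a* was not matched. The 3p arms are shown first, 5′ to 3′, with the seed in capitals, because the comparison of the clusters rests on them.
rno-miR-23a: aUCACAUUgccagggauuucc
rno-miR-23b: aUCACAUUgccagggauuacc
rno-miR-27a: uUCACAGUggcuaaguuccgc
rno-miR-27b: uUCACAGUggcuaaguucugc
rno-miR-24: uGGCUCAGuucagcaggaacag

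miR-23a and miR-23b share their seed and their first 18 bases and differ at 1 base, U19A, with the base of the a form first and positions counted from 1 at the 5′ end. miR-27a and miR-27b likewise share their first 18 bases and differ at 1 base, C19U. A read that ends before position 19 cannot be assigned to the a or the b form, and whether the counting allowed a mismatch for known miRNAs is not given in the sources used here, so that the split between a and b rows is uncertain to that extent. No further mature miRNA of the RefSeq table shared the seeds of miR-23, miR-27 or miR-24. The mature sequence of miR-24 is the same in both hairpins, so that its reads belong to both clusters, and only its 5p arms carry the name of their hairpin. The hairpins are printed for that reason, with the 5p and the 3p arm in capitals.
Mir24-2 (chr19:40859455-40859562, minus strand, GRCr8): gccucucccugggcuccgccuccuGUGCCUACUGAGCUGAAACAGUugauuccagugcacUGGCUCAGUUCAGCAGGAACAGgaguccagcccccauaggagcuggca
Mir24-1 (chr17:1818669-1818736, minus strand, GRCr8): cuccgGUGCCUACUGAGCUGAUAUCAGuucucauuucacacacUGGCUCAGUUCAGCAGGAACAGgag

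The 5p arms differ more between the clusters than the 3p arms do. miR-24-2* and miR-24-1* share their first 16 bases and their seed and then differ at 5 positions in an ungapped comparison, the first of them A17U. miR-27a* and miR-27b* have lengths of 22 and 24 bases and differ at 8 positions, the first of them G3A within the seed. They are printed with the seed in capitals.
rno-miR-24-2*: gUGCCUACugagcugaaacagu
rno-miR-24-1*: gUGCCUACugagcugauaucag
rno-miR-27a*: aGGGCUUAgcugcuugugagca
rno-miR-27b*: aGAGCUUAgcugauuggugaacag

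In the kidney the 3p arms took nearly all reads of the clusters. Over the 8 libraries, 1620009 reads lay on the 5 rows of 3p arms and 18497 on the 6 rows of 5p arms. The 11 rows together made up 1.33% ± 0.298 (SD, n = 4) of the reads of a control library and 1.47% ± 0.163 (SD, n = 4) of the reads of an AA library. miR-24 was the most abundant and ranked 15 of 620 miRNAs by mean CPM, followed by miR-27b (rank 29), miR-23a (42), miR-27a (47) and miR-23b (50). In the control group, miR-23a, miR-27a and miR-23b did not differ beyond their spread, at 1066 ± 366, 1027 ± 350 and 1016 ± 295 CPM (SD, n = 4 each). The mature 3p arms are 21 or 22 bases long, so that a scaling per length would hardly move this order. The study cut the 22 to 30 nucleotide band from the gel, and its effect on arms of 21 bases was not tested.

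The 4 tested 5p arms were lower than their 3p arms by a wide margin. miR-24-2* ranked 112 with 102 ± 15.9 CPM in the control group, miR-24-1* ranked 207 with 13.0 ± 2.42 CPM, miR-27a* ranked 226 with 6.18 ± 2.62 CPM and miR-27b* ranked 243 with 5.97 ± 1.65 CPM (SD, n = 4 each). miR-27a* and miR-27b* thus did not differ beyond their spread. miR-23a* and miR-23b* had only 1 to 7 reads in each library, below the minimum of 10 reads in at least 4 libraries, and were not tested. The reads of miR-23a* were 4, 1, 3 and 3 in CTL1 to CTL4 and 2, 4, 5 and 6 in AA1 to AA4, and those of miR-23b* were 4, 2, 7 and 7 and then 3, 5, 2 and 1.

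**Figure D1:**
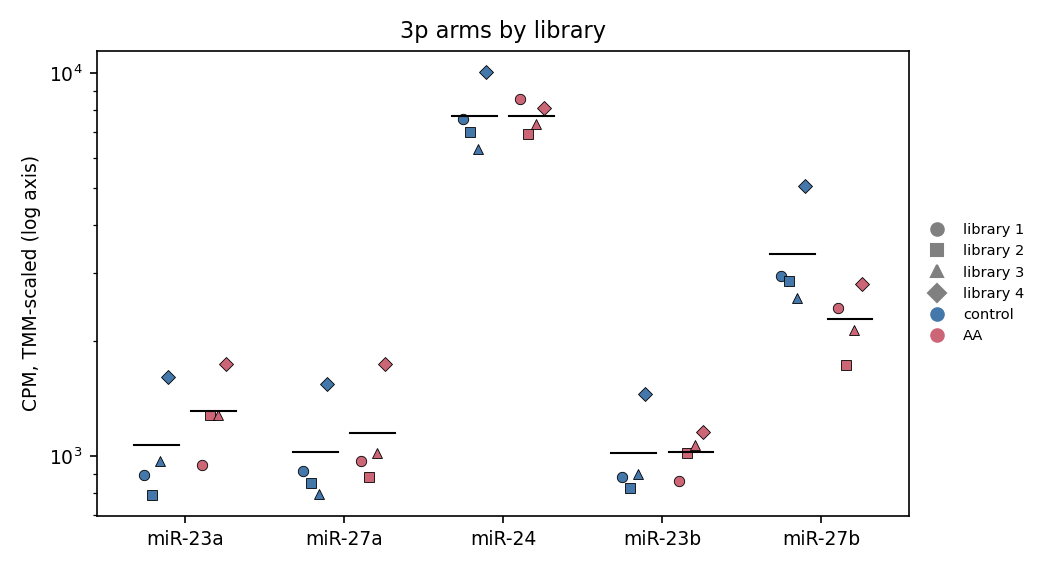
Level of each 3p arm in CPM after TMM scaling (log axis) in the 4 control and 4 AA libraries, with the marker giving the library number and the bar the group mean. CTL4 lies above the other control libraries for all 5 arms, and 3 of the 4 AA libraries lie below every control library for miR-27b.

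The comparison of AA with control asks which miRNAs of the clusters differed after 12 weeks of treatment with the carcinogen. It was made with edgeR's quasi-likelihood test on the 367 miRNAs with enough reads, 9 of which belong to the clusters. None of the 9 had an adjusted p-value under 0.05 (edgeR, Benjamini-Hochberg adjustment over all 367), whereas 16.3% of all tested miRNAs did. That share is 60 miRNAs, and 38 were called without CTL1 and 36 without CTL2. At an unadjusted p under 0.05, edgeR gave 3 of the 9, miR-27b, miR-27a* and miR-24-2*, beside 30.0% of all tested miRNAs. The Wald test of DESeq2 called 1 of the 9, miR-24-2*, beside 21.4% of the miRNAs with an adjusted p there. With the library number as a block, edgeR called 2 of the 9, beside 78 of all 367. These were miR-27b (adjusted p = 0.041) and miR-27a* (adjusted p = 0.015), but whether the numbers pair rats is uncertain. The groups did not overlap for 1 of the 9, again miR-24-2*, beside 24.3% of all tested miRNAs. The median absolute log2 fold change was 0.26 over the 9 and 0.40 over all 367. In bulk tissue, a lower level per cell and fewer cells that hold the miRNA cannot be told apart.

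In the a cluster, miR-23a, known as a repressor of the ubiquitin ligases of muscle atrophy, was at 893, 794, 973 and 1604 CPM in CTL1 to CTL4 and at 948, 1280, 1280 and 1735 CPM in AA1 to AA4. The groups overlapped, and CTL4 lay above 3 of the AA libraries. Its log2 fold change was 0.30 (95% interval -0.27 to 0.86, adjusted p = 0.44 from edgeR). It was 0.56 without CTL4, 0.03 without AA4 and 0.02 without CTL1 and AA2, and none of these fits gave an adjusted p under 0.05 (edgeR).

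miR-27a, the miR-27 of the a cluster, was at 913, 853, 794 and 1547 CPM in CTL1 to CTL4 and at 971, 881, 1017 and 1740 CPM in AA1 to AA4. In both groups the library numbered 4 was far above the rest. The log2 fold change was 0.17 (95% interval -0.45 to 0.78, adjusted p = 0.71 from edgeR), and it was 0.43 without CTL4 and -0.21 without AA4.

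In the b cluster, miR-23b was at 884, 824, 899 and 1456 CPM in CTL1 to CTL4 and at 863, 1021, 1067 and 1155 CPM in AA1 to AA4. All AA libraries lay within the range of the control libraries. The log2 fold change was 0.02 (95% interval -0.44 to 0.47, adjusted p = 0.96 from edgeR), with no stable sign, being -0.05 with the size factors of DESeq2, 0.24 without CTL4 and -0.15 without AA4.

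miR-27b, the second most abundant member, was at 2954, 2874, 2583 and 5061 CPM in CTL1 to CTL4 and at 2440, 1731, 2138 and 2817 CPM in AA1 to AA4. Of the AA libraries, 3 lay below every control library, and AA4 lay between CTL3 and CTL2. The log2 fold change was -0.56 (95% interval -1.09 to -0.03), with an unadjusted p of 0.0395 and an adjusted p of 0.14 from edgeR. Without CTL4, the highest library, the log2 fold change was -0.30, and with total counts in place of TMM scaling it was -0.35 (unadjusted p = 0.131, adjusted p = 0.29 from edgeR). Among the tested members, it was the only one with a negative log2 fold change.

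miR-24, which both clusters encode, was at 7569, 6997, 6344 and 10073 CPM in CTL1 to CTL4 and at 8547, 6945, 7379 and 8123 CPM in AA1 to AA4. The group means of 7746 ± 1630 and 7749 ± 721 CPM (SD, n = 4 each) were nearly the same. The 95% interval of its log2 fold change ran from -0.38 to 0.38 (adjusted p = 1.0 from edgeR), so that a change within these bounds is not resolved with 4 rats a group. The log2 fold change was 0.15 without CTL4 and -0.12 without AA4.

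**Figure D2:**
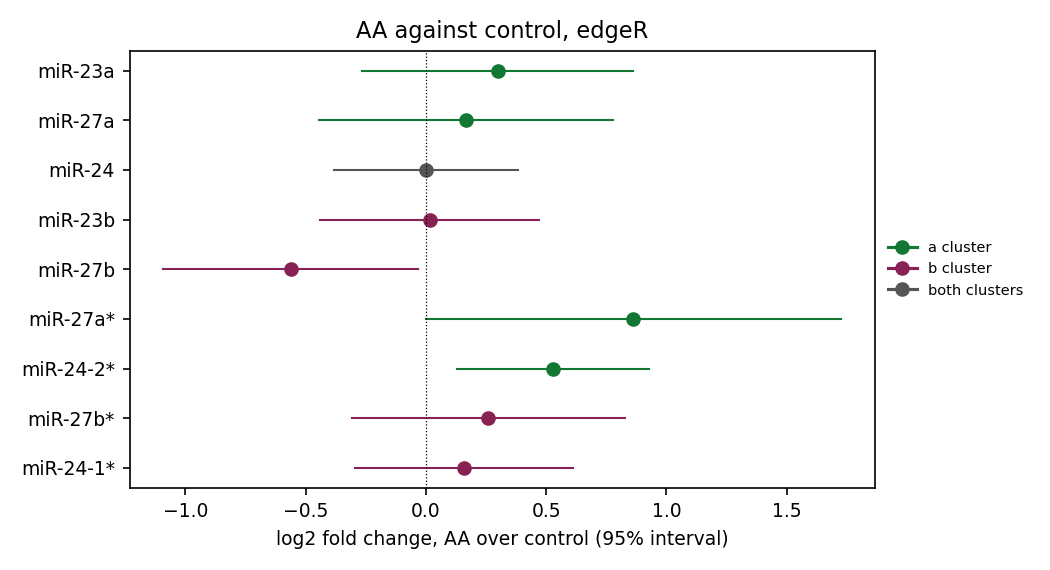
Log2 fold change of AA over control for the 9 tested members from edgeR's quasi-likelihood fit (x axis), with 95% intervals as lines and colour for the cluster. The interval of miR-27b lies below 0, and those of miR-24-2* and, by a very small margin, miR-27a* lie above 0, while none of the 9 passed the adjusted threshold.

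Among the 5p arms, miR-24-2* of the a cluster was at 114, 98.4, 115 and 81.1 CPM in CTL1 to CTL4 and at 131, 151, 153 and 154 CPM in AA1 to AA4. All 4 AA libraries lay above all 4 control libraries. The log2 fold change was 0.53 (95% interval 0.13 to 0.93), with an unadjusted p of 0.0145 and an adjusted p of 0.076 from edgeR. The threshold was passed with total counts in place of TMM scaling (log2 fold change 0.73, adjusted p = 0.039 from edgeR) and with the Wald test of DESeq2 (0.47, adjusted p = 0.044). Total counts also moved the median log2 fold change of all tested miRNAs from 0.06 to 0.27. With them, the log2 fold change was 0.52 for miR-23a, 0.38 for miR-27a, 0.24 for miR-23b, 0.21 for miR-24, 1.05 for miR-27a*, 0.46 for miR-27b* and 0.37 for miR-24-1*, none of which passed the adjusted threshold (edgeR). Without CTL1 and AA2, the libraries with the most miR-122, its log2 fold change was 0.38 (adjusted p = 0.32 from edgeR).

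miR-24-1*, its counterpart in the b cluster, was at 10.1, 12.9, 12.9 and 16.0 CPM in CTL1 to CTL4 and at 12.7, 16.3, 14.4 and 14.5 CPM in AA1 to AA4. The groups overlapped, and the log2 fold change was 0.16 (95% interval -0.30 to 0.61, adjusted p = 0.63 from edgeR). The value was 0.27 without CTL4 and 0.06 without AA4. miR-27a*, from the a cluster, was at 6.75, 2.87, 5.89 and 9.21 CPM in CTL1 to CTL4, from 39 to 113 reads, and at 13.6, 6.13, 9.15 and 16.1 CPM in AA1 to AA4, from 113 to 271 reads. AA1 and AA4 lay above every control library and the other 2 did not. Its log2 fold change of 0.86 had an unadjusted p of 0.0499 and an adjusted p of 0.17 from edgeR. Without AA4, its highest library, the log2 fold change was 0.53, and without CTL4 it was 1.12.

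miR-27b* was at 7.87, 6.55, 5.46 and 3.99 CPM in CTL1 to CTL4 and at 8.58, 6.29, 7.36 and 6.40 CPM in AA1 to AA4. CTL4, which was highest for the 3p arm of the same hairpin, was the lowest library for this arm. The log2 fold change was 0.26 (95% interval -0.31 to 0.83, adjusted p = 0.50 from edgeR). It was 0.11 without CTL4, 0.06 without AA1 and 0.42 without CTL1.

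**Figure D3:**
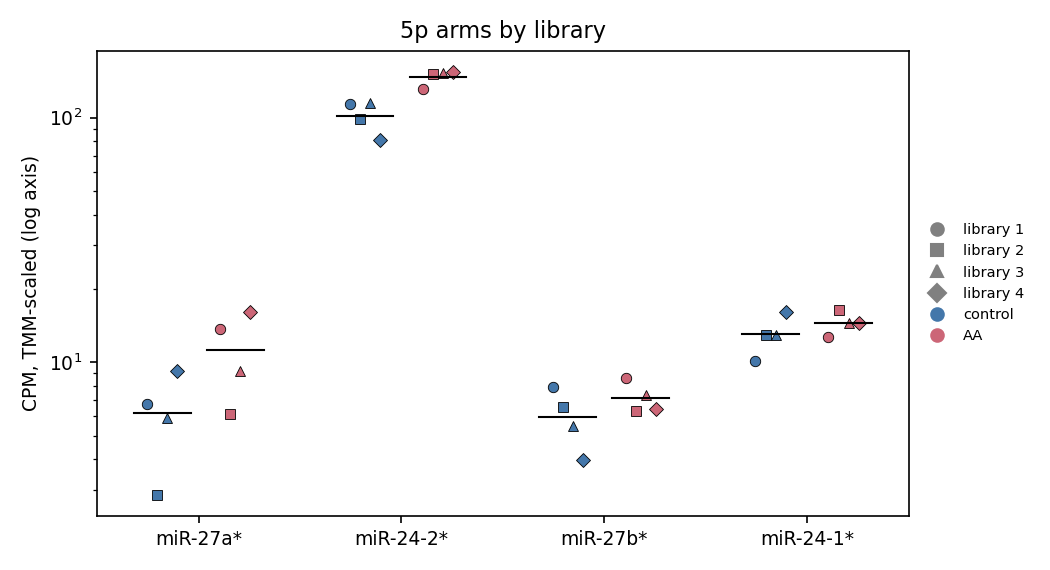
Level of the 4 tested 5p arms in CPM after TMM scaling (log axis) in the 4 control and 4 AA libraries, with the marker giving the library number and the bar the group mean. The AA libraries of miR-24-2* lie between 131 and 154 CPM, above the control libraries at 81.1 to 115 CPM, whereas the groups of the other 3 arms overlap.

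The a and b clusters were then compared within each library, as a ratio of reads, which does not depend on the scaling between libraries. For 1 read of miR-27b there were 0.309, 0.297, 0.308 and 0.306 reads of miR-27a in CTL1 to CTL4 and 0.398, 0.509, 0.476 and 0.618 in AA1 to AA4. The control rats hardly differed, CTL4 included, and all 4 AA rats lay above them. The mean log2 ratio was -1.71 ± 0.03 in control rats and -1.02 ± 0.26 in AA rats (SD, n = 4 each), a difference of 0.70 or 1.62-fold (exact permutation test, two-sided, p = 0.0286, the smallest that 4 against 4 allows). Adjusted over the 10 ratios compared, no p-value passed 0.05, and that of miR-27a to miR-27b was 0.143 (exact permutation test). With this number of rats, at least 6 of the 10 ratios would have had to reach the smallest p for any adjusted value to fall under 0.05, so that missing the adjusted threshold says little. Without CTL4 and AA4 the difference was 0.59, and without CTL1 and AA2 it was 0.69.

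For miR-23 the clusters were nearly level in control rats. For 1 read of miR-23b there were 1.01, 0.963, 1.08 and 1.10 reads of miR-23a in CTL1 to CTL4 and 1.10, 1.25, 1.20 and 1.50 in AA1 to AA4. Of the AA libraries, 3 lay above every control library, and AA1 was level with CTL4. The mean log2 ratio was 0.05 ± 0.09 in control rats and 0.33 ± 0.19 in AA rats (SD, n = 4 each), a difference of 0.27 (exact permutation test, two-sided, p = 0.0571, adjusted p = 0.143). The shift of miR-27 exceeded that of miR-23 by 0.42 on the log2 scale, a contrast chosen after the values were seen and given as a description without a test.

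Within the b cluster, miR-27b was set against miR-23b, which is cut from the same primary transcript. There were 3.34, 3.49, 2.87 and 3.48 reads of miR-27b for 1 read of miR-23b in CTL1 to CTL4 and 2.83, 1.69, 2.0 and 2.44 in AA1 to AA4. All AA libraries lay below all control libraries, although AA1 was close to CTL3. The mean log2 ratio was 1.72 ± 0.13 in control rats and 1.14 ± 0.32 in AA rats (SD, n = 4 each), a difference of -0.58 (exact permutation test, two-sided, p = 0.0286, adjusted p = 0.143). Within the a cluster, miR-27a to miR-23a gave a difference of -0.16 with overlapping groups (exact permutation test, two-sided, p = 0.371, adjusted p = 0.413). That difference was -0.05 without AA2 and -0.24 without CTL3 or without AA1. Both ratios without overlap therefore have miR-27b as a term.

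**Figure D4:**
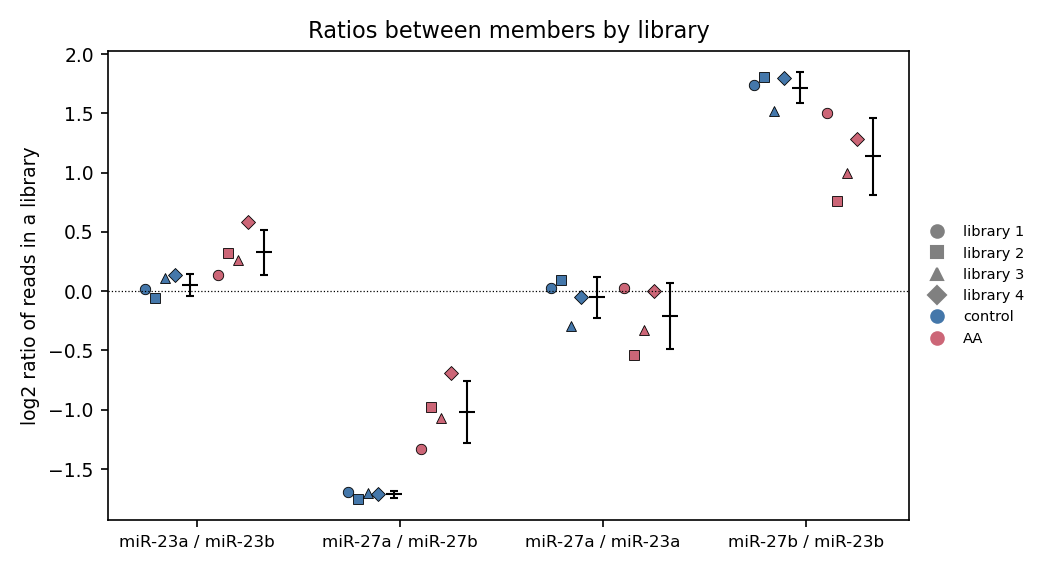
Log2 ratio of the reads of a pair of members in the same library (y axis, 0 means equal reads) for the control and AA libraries, with the mean and SD of each group as black bars. The control libraries of miR-27a to miR-27b lie together at -1.71 with all AA libraries above them, and those of miR-27b to miR-23b lie above all AA libraries.

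Summed over miR-23 and miR-27, the b cluster held 4384 ± 1430 CPM in control rats and 3308 ± 503 CPM in AA rats, and the a cluster held 2093 ± 709 and 2463 ± 692 CPM (SD, n = 4 each). For both clusters the SD of the control group exceeded the distance between the means, which rested on CTL4. Without it, the control level was 3673 ± 179 CPM for the b cluster and 1740 ± 83.5 CPM for the a cluster (SD, n = 3 each). These control SDs were below the distance to the AA means, but the AA SD of 503 CPM for the b cluster was not. With CTL4 left out, all 4 AA libraries lay above the 3 control libraries for the a cluster. For the b cluster, 3 of the 4 lay below them. Without AA4 and with CTL4 kept, the AA level of the a cluster was 2126 ± 192 CPM, near the control level of 2093 CPM. That of the b cluster was 3086 ± 293 CPM (SD, n = 3 each). These sums were not tested. For the 5p arms of miR-24, the a form was the larger. For 1 read of miR-24-1* there were 11.2, 7.62, 8.91 and 5.04 reads of miR-24-2* in CTL1 to CTL4 and 10.3, 9.21, 10.6 and 10.6 in AA1 to AA4, with overlapping groups (exact permutation test, two-sided, p = 0.229, adjusted p = 0.327). The log2 difference was 0.37, and 0.16 without CTL4. The ratio of miR-27a* to miR-27b* had a log2 difference of 0.59 with a control SD of 0.98, and the groups overlapped (exact permutation test, two-sided, p = 0.371, adjusted p = 0.413). This difference was 1.00 without CTL4, 0.34 without AA4 and 0.20 without CTL2.

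The share of the 5p arm beside the 3p arm was compared as well. For 100 reads of miR-27a there were 0.743, 0.341, 0.745 and 0.598 reads of miR-27a* in CTL1 to CTL4 and 1.40, 0.699, 0.903 and 0.924 in AA1 to AA4. For 100 reads of miR-27b there were 0.268, 0.229, 0.212 and 0.0797 reads of miR-27b* in CTL1 to CTL4 and 0.353, 0.365, 0.346 and 0.228 in AA1 to AA4. In both hairpins 3 of the 4 AA libraries lay above the highest control library, and both ratios had an exact permutation p of 0.0857 (two-sided, adjusted p = 0.143). The log2 difference was 0.72 for miR-27a* (0.46 without CTL2) and 0.82 for miR-27b* (0.43 without CTL4). For 100 reads of miR-24 there were 1.50, 1.41, 1.82 and 0.805 reads of miR-24-2* in CTL1 to CTL4 and 1.54, 2.17, 2.07 and 1.90 in AA1 to AA4, a log2 difference of 0.52 (exact permutation test, two-sided, p = 0.0571, adjusted p = 0.143), which was 0.28 without CTL4. The same ratio for miR-24-1* differed by 0.15 (p = 0.486 from the exact permutation test, adjusted p = 0.486), and by 0.04 without CTL1 or without AA2 and 0.26 without AA1. None of the 4 arm ratios separated the groups. The reads of miR-24 come from the hairpins of both clusters, so that the ratios to miR-24 are not the arm share of a single hairpin.

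The ratio of miR-27a to miR-27b can be set beside other miRNAs of the table named as an a and a b form. Only names that are identical apart from the letter were paired, which left out forms with unlike arm suffixes, such as miR-30a with miR-30b-5p, miR-10a-5p with miR-10b and miR-20a with miR-20b-5p. This gave 26 pairs with both forms tested, the miR-23 and miR-27 pairs among them. The groups did not overlap in 5 of the 26 pairs, or 19.2%, which were miR-27a to miR-27b, miR-130a to miR-130b, miR-146a to miR-146b, miR-181a to miR-181b and miR-301a to miR-301b. By the size of the difference, miR-27a to miR-27b ranked 5 of 26, miR-27a* to miR-27b* ranked 8 and miR-23a to miR-23b ranked 11, and the median absolute difference was 0.22. The SD of the log2 ratio over the control rats was 0.0266 for miR-27a to miR-27b, the lowest of the 26 pairs, with a median of 0.17. It was hardly higher for miR-196a to miR-196b (0.0279) and miR-125a-5p to miR-125b-5p (0.0318). Over the AA rats, the SD of miR-27a to miR-27b was 0.26. This comparison was added after the values were seen and is a description without a test.

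**Figure D5:**
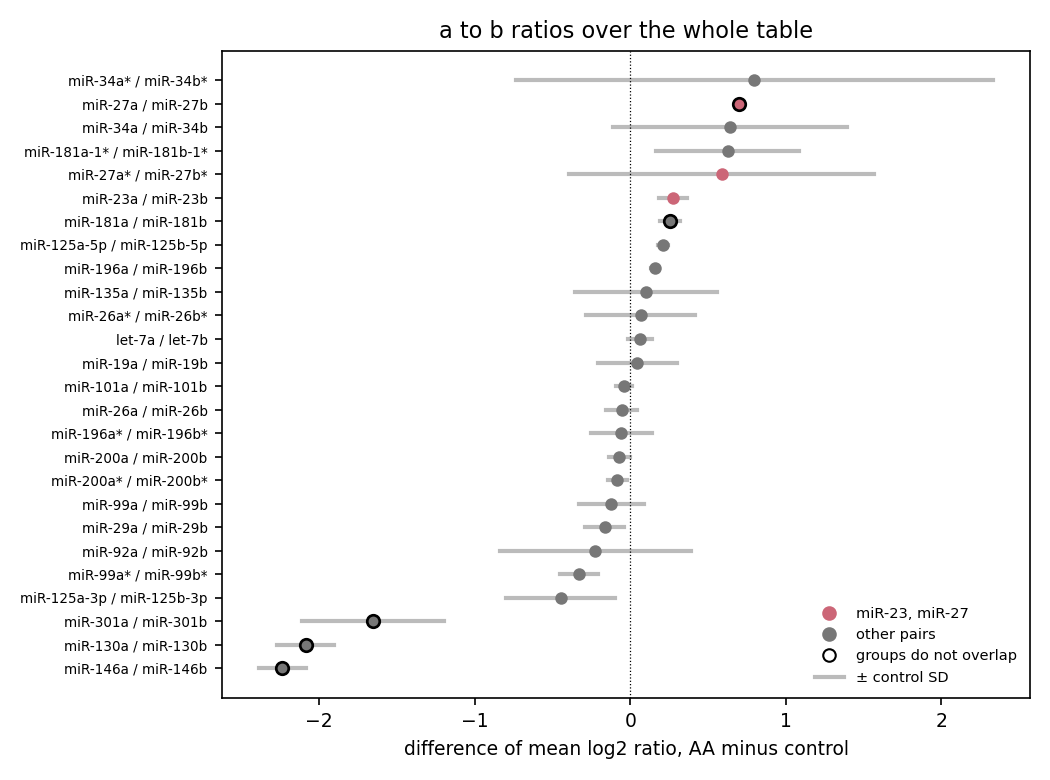
Difference in the mean log2 ratio of the a to the b form, AA minus control (x axis), for the 26 pairs of tested miRNAs, with the control SD as a grey bar, the miR-23 and miR-27 pairs in red and a black ring where the groups do not overlap. miR-27a to miR-27b lies at 0.70 with a ring, and miR-23a to miR-23b lies at 0.27 without one.

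The miRNAs most like the members over the 8 libraries were found as those with the smallest root mean square difference of log2 CPM, each centred on its own mean. For miR-27a these were miR-324-5p (0.139), miR-324-3p and miR-615* (0.186 each), for miR-23a let-7d* (0.160), let-7f-2* (0.180) and miR-331 (0.181), and for miR-24 miR-421* (0.0953), miR-98* (0.154) and miR-339-5p (0.157). For miR-23b they were miR-361 (0.136), miR-196b* (0.150) and miR-324-3p (0.173), and for miR-27b they were miR-340-5p (0.184), miR-218 (0.200) and miR-378* (0.206). The nearest member was miR-23b for miR-23a (0.188), miR-23a for miR-27a (0.214) and miR-24 for miR-27b (0.316). Thus each 3p arm had miRNAs outside the clusters whose profile lay closer than that of any other member. Far more miRNAs outside the clusters than members were compared, so that a closer one was likely from their number alone.

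Since the samples were whole kidney, miRNAs that mark other cell types were read beside the members. The endothelial miR-126 and miR-126*, of interest because the clusters are abundant in endothelium, were both tested and neither was called, with log2 fold changes of -0.18 and -0.58 (adjusted p = 0.61 and 0.30 from edgeR) and a summed level of 9709 ± 1240 CPM in the control group and 8117 ± 1409 CPM in the AA group (SD, n = 4 each). Of all tested miRNAs, 16.3% were called in either direction, which stands beside the count of each list. Of the 6 leukocyte miRNAs tested, 3 were called higher in the AA group, miR-142-3p, miR-146b and miR-223. miR-150, miR-142-5p and miR-146a were not called, with log2 fold changes of 0.58, 0.30 and -0.09 (adjusted p = 0.062, 0.56 and 0.71 from edgeR). The summed level was 2926 ± 464 and 6085 ± 1593 CPM, with miR-146a the most abundant in control rats and miR-142-3p in AA rats. Of the 3 stromal miRNAs, 1 was called higher, miR-199a-3p, with sums of 496 ± 30.0 and 800 ± 192 CPM. Of the 9 kidney epithelial miRNAs, 2 were called lower, miR-194 (adjusted p = 0.05 after rounding, edgeR) and miR-204 (adjusted p = 0.034, edgeR). Among those not called, miR-200c and miR-141 had positive log2 fold changes of 0.42 and 0.13 (adjusted p = 0.21 and 0.73 from edgeR), and the rest had negative ones. The sums were 175412 ± 31130 and 143107 ± 22117 CPM, mostly of miR-30a. Neither the 2 red blood cell nor the 2 smooth muscle miRNAs were called. The sums were 636 ± 130 and 388 ± 171 CPM for red blood cells, led by miR-451, and 199216 ± 26905 and 155370 ± 19328 CPM for smooth muscle, led by miR-143 (SD, n = 4 each, control and AA). The liver list, miR-122 and miR-122*, had 1 tested miRNA that was not called, with sums that ranged from 0.696 to 539 CPM. No marker in the table was at 0 in all libraries, and miR-155 of the leukocyte list was not analysed here. The part of these cell types in the ratio of miR-27a to miR-27b was not tested.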

How the data were processed

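Small RNA from kidneys was sequenced on Illumina equipment. The authors deposited whole-number counts of reads per known rat miRNA, without normalization or pooling. The study's methods name miRanalyzer and Bowtie with miRBase, and the submitters' processing notes name Bowtie and DESeq. According to the study, reads with ambiguous bases and the shortest reads were removed, and reads above a length limit were trimmed. The mismatches allowed for known miRNAs and a genome build are not given in the sources used here. Groups came from the sample titles. Each library was 1 rat, and libraries of a group differed by a chi-square of at least 436.8 per degree of freedom.

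AA and control were compared with edgeR 4.0.16 in R 4.3.3 (quasi-likelihood test, TMM, Benjamini-Hochberg adjustment, threshold 0.05) over miRNAs that reached 10 reads in 4 or more of the 8 libraries. The standard error was the log2 fold change divided by the square root of F. The step was tested on simulated data. Within-library ratios, with 0.5 reads added to both counts, were compared with the exact permutation test (scipy 1.17.1). DESeq2 1.42.0, other scalings and filters, the library number as a block and left-out libraries were alternatives. All members, the marker lists and the 3 nearest miRNAs of each 3p arm are named. The members and lists were chosen with earlier results of these data known. Intervals cover the spread between rats, and PCR copies are not separate molecules, so that counting error is understated. Sequences are from RefSeq.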

Additional observations from a re-analysis of the deposited data

Results flagged for a closer look

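Over 38 groups of 4 libraries, 6 values lay far from the other 3 of their group, where chance alone gives about 1.9. The groups share reads and libraries and are not independent, so that these numbers do not measure an excess over chance. CTL4 was the source of 3 of them. In CTL4, miR-27a reached 1547 CPM, where CTL1 to CTL3 had 794 to 913, with miR-23b at 1456 against 824 to 899, and miR-27b at 5061 against 2583 to 2954. In AA4, miR-27a reached 1740 CPM, where AA1 to AA3 had 881 to 1017. In AA1, miR-24-2* was at 131 CPM against 151 to 154. The log2 ratio of miR-27b* to miR-27b in AA4 was -8.78 against -8.18 to -8.10. The source of these values was not tested.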

How the results depend on the processing

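With other scalings, tests and filters, edgeR or DESeq2 called 52 to 76 miRNAs beside the 60 of the reported comparison. Total counts gave 54 higher and 14 lower in place of 38 and 22. Fits that each lacked 1 library called 36 to 54, with 38 without CTL1 and 36 without CTL2, and without both CTL1 and AA2, a choice made after the data were seen, 31 were called. Of the 9 members tested, 0 were called in each of these left-out fits. The libraries numbered 1 to 3 called 55 miRNAs and 0 members.

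Members near 0 changed sign. miR-24 was at -0.057 with DESeq2 size factors, -0.057 with the Wald test, -0.0057 without the filter and -0.16 without CTL1 and AA2. miR-23b was at -0.048 with DESeq2 size factors, -0.048 with the Wald test and -0.25 without CTL1 and AA2, and miR-24-1* was at -0.20 without CTL1 and AA2. With 1 library left out, the log2 fold changes ran from -0.18 to 0.15 for miR-24, -0.15 to 0.24 for miR-23b, -0.21 to 0.43 for miR-27a and -0.062 to 0.27 for miR-24-1* (lowest without AA2). miR-23a, miR-27b and the other 5p arms kept their sign.

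Both groups are numbered 1 to 4. With the number as a block, 78 miRNAs were called, miR-27b (-0.53, adjusted p = 0.041 from edgeR) and miR-27a* (0.88, adjusted p = 0.015 from edgeR) among them. Same-numbered libraries deviated with correlations of 0.05, 0.20, 0.14 and 0.35 across miRNAs, and AA2, AA3 and AA4 each correlated best with their own number, while AA1 correlated best with CTL2. Nothing in the labels ties the numbers to a litter or batch, and not every pair passed 0.1, so that whether they pair rats is uncertain and the block was kept as an alternative. For the ratios, 4 pairs cannot give an exact p below 0.125.

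The adjusted threshold was nearly out of reach for the ratios, so that no side of it shows stability. All 10 kept their sign with a pseudocount of 5 and with medians. For miR-27a to miR-27b and miR-27b to miR-23b, the exact permutation p stayed at 0.0286 with the pseudocount and was 0.0571 with medians. With 1 library left out, the difference of miR-27a to miR-27b ran from 0.59 to 0.80. Without CTL1 and AA2, the ratio of miR-24-1* to miR-24 turned to -0.069. The exact test of 3 against 4 cannot go below 0.0571.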
